A study of Mus musculus with 144 samples.

Results

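The comparison set out here is between glomerular mesangial cells of BTBR ob/ob mice and those of BTBR wild-type (WT) mice at 6 weeks of age. Its libraries were chosen by sample title alone, as all mesangial libraries of either genotype at that age. They number 8 ob/ob and 8 WT, which is 16 of the 144 libraries of the series, and every gene of the tables was considered. The study profiled kidney cells of mice with early diabetic nephropathy (DN), and besides mesangial cells it sorted podocytes and glomerular endothelial cells (gECs) at 6, 12 and 18 weeks. Each genotype was represented by 4 female and 4 male libraries, each made from a sorted population of cells and sequenced in bulk.

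The ob/ob mice carried the ob mutation of Lep, the gene of the satiety hormone leptin, on the BTBR background (WiscJ strain). On this background the mutation leads to obesity and diabetes. Mice of both genotypes also carried a podocyte reporter, in which Cre recombinase under a promoter active in podocytes switches podocytes from tdTomato to EGFP. Leptin is lost from the whole body, so obesity, high blood glucose and the absence of leptin itself cannot be told apart in these groups. Glomeruli were isolated with magnetic beads and digested, and mesangial cells were taken as live cells that were CD45-, EGFP- and PODXL- and carried CD73, a surface enzyme encoded by Nt5e. Nothing in the labels says whether libraries of a group came from separate mice. The p values below therefore measure the spread between libraries, which may not be that between mice. Fewer cells of a type in a sorted sample and less RNA per cell cannot be told apart in bulk data.

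Mesangial cells are the contractile, pericyte-like cells that hold the glomerular capillary loops together, and they make most of the matrix between them. They respond to vasoactive hormones, to growth factors from the neighbouring endothelium and podocytes, and to stretch of the capillary tuft. When their actin cytoskeleton assembles filaments, the coactivators MRTF-A and MRTF-B are released from monomeric actin, enter the nucleus and bind the serum response factor SRF, which turns on actin and contractile genes through a DNA element called the CArG box. Expansion of the mesangial matrix is the classic lesion of DN.

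Total counts ran from 24.5 to 33.4 M in WT and from 25.1 to 33.0 M in ob/ob libraries, with 19039 to 21398 detected genes. Lep was at 0 counts in all 16 libraries, so the sorted cells themselves give no check of the mutated gene. Nt5e was at 702 to 794 CPM (median 756) in WT and 616 to 841 CPM (median 766) in ob/ob, and its level was not distinguishable between the genotypes (log2FC 0.01 ± 0.076, adjusted p = 0.954). Podxl, the podocyte surface gene selected against in the sort, was at 6.68 to 47.2 CPM (median 20.4) in WT and 7.21 to 99.2 CPM (median 13.2) in ob/ob, and its level was not distinguishable between the groups either (adjusted p = 0.773). Itga8, an integrin that marks mesangial cells among glomerular cells, was at 4893 to 5391 CPM (median 5158) in WT and 5459 to 6289.8 CPM (median 5751) in ob/ob. Nt5e and Itga8 were abundant in every library. Immune markers were low, with Ptprc (CD45) at no more than 0.320 CPM, 2 of 10 immune and all 4 neutrophil genes at 0 in all 16 libraries.

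The summed levels of some markers of other cell types nevertheless differed between the groups, by an exact two-sided permutation test adjusted over 14 measures. The 9 podocyte markers summed to 502 to 651 CPM in WT and 564 to 724 CPM in ob/ob (adjusted p = 0.0218), and 2 of the 9 rose while 2 fell. The 9 gEC markers summed to 1109.6 to 1387 CPM in WT and 1043 to 2151 CPM in ob/ob (adjusted p = 0.0402), and 4 of the 9 rose. The defining endothelial genes Kdr and Pecam1 had medians of 12.2 and 5.50 CPM in WT and 20.4 and 6.60 CPM in ob/ob and did not pass the test. Their ranges were wide, with Kdr at 6.36 to 41.7 CPM in WT and 6.13 to 165.7 CPM in ob/ob. Pecam1 was at 2.50 to 14.3 CPM in WT and 2.79 to 56.6 CPM in ob/ob. The sum of the 9 smooth muscle markers went from 422 to 552 CPM in WT to 522 to 629 CPM in ob/ob (adjusted p = 0.0218), and only Acta2 and Tagln of its 7 tested members rose. Its most specific members did not follow, since Myh11 had medians of 7.00 CPM in WT and 3.73 CPM in ob/ob and Cnn1 did not exceed 0.345 CPM in any library. The renin cell sum (Ren1 and Akr1b7, adjusted p = 0.0381) and the parietal cell sum (adjusted p = 0.0402) were also higher in ob/ob, at 11.4 to 45.6 and 11.1 to 48.5 CPM against 6.34 to 16.2 and 7.33 to 22.7 CPM. Each followed 1 gene. Ren1 rose and Akr1b7 did not pass (medians of 5.80 CPM in WT and 3.72 CPM in ob/ob). Of the 4 parietal markers Cldn1 rose (medians of 11.5 and 24.9 CPM), Scin fell (1.38 and 0.54 CPM), and Pax2 and Pax8 were near 0. The mesangial marker sum rose as well, from a median of 19127 to 19996 CPM (adjusted p = 0.0435), but its members went both ways. Itga8, Ednra, Serpine2 and Rgs5 rose, and Gata3 (log2FC -0.27, adjusted p = 0.0442), Pdgfrb (-0.27, adjusted p = 0.00711) and Ptn (-0.40, adjusted p = 0.000149) fell, of 10 markers. The share of mitochondrial counts was lower in ob/ob (median 7.03% against 7.99%, adjusted p = 0.0381). Sums for proximal tubule (adjusted p = 0.564), distal nephron (0.0963), immune (0.564), erythroid (0.564) and fibroblast (0.0991) markers, total counts (0.649) and the number of detected genes (0.176) did not pass. The part of these marker levels in the gene results below was not tested.

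In addition, 3 libraries held more of the nuclear RNA Neat1 than the others, namely WT male 2 (1611 CPM), ob/ob female 2 (1574.5 CPM) and ob/ob female 3 (868 CPM), against 171 to 733 CPM in the other 13. Neat1 itself was not distinguishable between genotypes (log2FC -0.39 ± 0.47, adjusted p = 0.686). These libraries belong to both genotypes, and counts are given with and without them wherever leaving them out changes a call or moves a count by over 1.5 times.

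At 6 weeks 2313 of 17951 tested genes (12.9%) were called changed at an adjusted p under 0.05 in the quasi-likelihood test of edgeR, adjusted after Benjamini and Hochberg. Of all tested genes 8.22% were higher and 4.66% lower in ob/ob, and the median log2 fold change (log2FC, ob/ob over WT) over all of them was -0.01. Most called changes were small. No more than 202 genes rose and 107 fell by at least 2-fold, while 1041 of the higher and 612 of the lower genes changed by under 1.5-fold. In 405 of the 1476 genes called higher and 179 of the 837 called lower the 8 ob/ob libraries did not overlap the 8 WT libraries at all. Many genes below were named for a small p or a large change, which favours groups that are apart. Over all tested genes, called or not, such a gap was found in the higher direction for 2.28% and in the lower direction for 1.04%. Each group of genes below is to be read against these background shares.

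Elmod1, a GTPase-activating protein for Arf proteins (ENSMUSG00000041986, chr9:53911457-53975301, minus strand of GRCm38), had the largest log2FC of the genes that averaged at least 5 CPM in the higher group, leaving aside ENSMUSG00000105361, which is described at the end of the paragraph. Its level was 0.692 to 1.74 CPM (median 1.15) in WT and 5.84 to 33.8 CPM (median 7.77) in ob/ob (CPM, counts relative to the TMM library size), and the groups did not overlap (log2FC 3.49 ± 0.43, adjusted p = 4.04e-08, the error being the SE). Ogn, which encodes the small leucine-rich proteoglycan osteoglycin (ENSMUSG00000021390, chr13:49608046-49624501, plus strand of GRCm38), was at 0.787 to 2.15 CPM (median 1.22) in WT and 6.65 to 25.6 CPM (median 10.9) in ob/ob (log2FC 3.25 ± 0.30, adjusted p = 5.72e-11). The adipokine-like secreted protein C1qtnf3 (ENSMUSG00000058914, chr15:10952332-10980150, plus strand of GRCm38) was at 2.91 to 6.62 CPM (median 4.70) in WT and 24.7 to 58.4 CPM (median 28.7) in ob/ob (log2FC 2.83 ± 0.21, adjusted p = 1.08e-13). The highest WT library stayed below the lowest ob/ob library in all 3 genes. Angpt4, a ligand of the Tie2 receptor, was at 1.32 to 3.80 CPM (median 2.62) in WT and 9.90 to 33.7 CPM (median 14.7) in ob/ob (log2FC 2.78 ± 0.26, adjusted p = 4.46e-11). Limch1, which activates non-muscle myosin II, was at 21.1 to 46.3 CPM (median 26.7) in WT and 109 to 257 CPM (median 164) in ob/ob (log2FC 2.54 ± 0.23, adjusted p = 1.92e-11). Again no ob/ob library overlapped a WT library. The other genes of the 15 with the largest increase were Acta2, Tagln, Spon2, Clca3a1 and Gpx3, described below, and Ptprq (2.45), Vwa3a (2.41), the smooth muscle phosphatase inhibitor Ppp1r14a (2.29), Gm6265 (2.97) and ENSMUSG00000105361. The last had a log2FC of 10.51 that came from ob/ob female 2 alone, which held 76.3 CPM. Its log2FC was 0.06 (adjusted p = 1.0) without that library.

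Among the genes with the largest decrease, Ephb1, a receptor for ephrin-B ligands (ENSMUSG00000032537, chr9:101922128-102354693, minus strand of GRCm38), was at 56.3 to 83.1 CPM (median 66.2) in WT and 6.03 to 14.5 CPM (median 10.9) in ob/ob (log2FC -2.68 ± 0.24, adjusted p = 3.57e-11). The calmin gene Clmn was at 6.63 to 13.8 CPM (median 10.1) in WT and 0.488 to 3.13 CPM (median 1.28) in ob/ob (log2FC -2.55 ± 0.29, adjusted p = 5.94e-09), and Gfpt2, an isoform of the rate-limiting enzyme of hexosamine synthesis (ENSMUSG00000020363, chr11:49794178-49838613, plus strand of GRCm38), was at 6.28 to 22.6 CPM (median 15.1) in WT and 1.99 to 4.62 CPM (median 2.91) in ob/ob (log2FC -2.32 ± 0.19, adjusted p = 1.61e-12). In each of these genes all 8 ob/ob libraries lay below all 8 WT libraries. Periostin (Postn), a matricellular protein that binds integrins (ENSMUSG00000027750, chr3:54361109-54391037, plus strand of GRCm38), was at 30.6 to 58.1 CPM (median 41.8) in WT and 9.15 to 18.9 CPM (median 11.6) in ob/ob (log2FC -1.76 ± 0.17, adjusted p = 1.45e-10), again without overlap. Camk2a, a calmodulin-dependent kinase, was at 21.3 to 29.4 CPM (median 24.0) in WT and 4.39 to 11.1 CPM (median 7.45) in ob/ob (log2FC -1.70 ± 0.19, adjusted p = 5.38e-09). Its groups were apart as well. Also among the 15 were the adapter Efs (-2.04), the protease-like Adam28 (-1.97), arginase Arg1 (-1.90), Ky (-1.82), the Wt1 antisense RNA Wt1os (-1.74), the sulfatase Arsi (-1.59), Tmem132e (-1.41) and Ppp1r14c (-1.38), and the calcification inhibitor Mgp, described below.

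**Figure D1:**
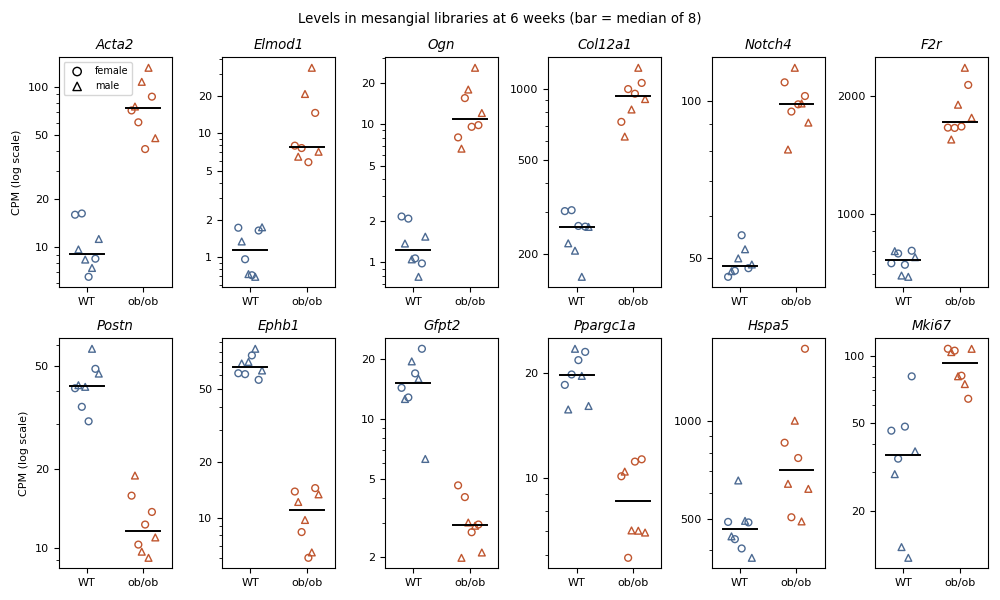
Levels of 12 genes in each of the 16 libraries (vertical axis, CPM on a log scale), with WT and ob/ob side by side, circles for females and triangles for males, and a bar at each group's median. The groups do not overlap in any gene of the upper row, and Postn, Ephb1 and Gfpt2 in the lower row are lower in every ob/ob library than in any WT library.

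Targets of MRTF and SRF, the actin-regulated pathway outlined above, formed the group with the largest called share. Of its 28 tested members 23 rose (82.1% against the 8.22% background) and none fell, with a median log2FC of 0.57. The list was chosen knowing that the study named Acta2 and Tagln on these samples, so it is not independent evidence of its direction. Smooth muscle alpha-actin (Acta2, ENSMUSG00000035783, chr19:34241090-34255590, minus strand of GRCm38) was at 6.54 to 16.2 CPM (median 9.08) in WT and 41.0 to 132 CPM (median 73.4) in ob/ob (log2FC 2.82 ± 0.33, adjusted p = 1.91e-08). Transgelin (Tagln), an actin-binding protein of contractile cells, was at 2.67 to 6.94 CPM (median 3.54) in WT and 12.1 to 48.5 CPM (median 24.1) in ob/ob (log2FC 2.64 ± 0.32, adjusted p = 3.03e-08). The lowest ob/ob library exceeded the highest WT library in both. Leiomodin 1 (Lmod1), an actin filament nucleator of smooth muscle, was at 1.10 to 2.38 CPM (median 1.73) in WT and 3.46 to 19.9 CPM (median 6.73) in ob/ob (log2FC 2.17 ± 0.34, adjusted p = 4.76e-06). The actin-binding nexilin gene Nexn was at 12.8 to 22.2 CPM (median 17.1) in WT and 22.9 to 52.3 CPM (median 32.6) in ob/ob (log2FC 0.96 ± 0.14, adjusted p = 1.64e-06). Neither gene had any overlap between the groups.

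Smaller increases were seen in other cytoskeletal members. Cald1 (caldesmon, which regulates actomyosin) was at 2783 to 3204 CPM (median 3066) in WT and 3530.5 to 4957 CPM (median 4318) in ob/ob (log2FC 0.50 ± 0.066, adjusted p = 2.03e-07). Flna (filamin A, an actin cross-linker) was at 1874 to 3178 CPM (median 2166) in WT and 3223 to 4898 CPM (median 4216) in ob/ob (log2FC 0.81 ± 0.11, adjusted p = 5.14e-07). Fhl1, a LIM-domain protein of muscle, was at 101 to 127 CPM (median 109) in WT and 152 to 270.2 CPM (median 194) in ob/ob (log2FC 0.89 ± 0.095, adjusted p = 1.60e-09). Tagln2 was at 389.6 to 457 CPM (median 399) in WT and 513 to 660.2 CPM (median 587) in ob/ob (log2FC 0.51 ± 0.062, adjusted p = 3.02e-08). The groups were apart in all 4. The tropomyosins Tpm1 (0.58), Tpm2 (0.65) and Tpm4 (0.73), the light chain Myl9 (0.56), the non-muscle myosin Myh9 (0.38), alpha-actinin Actn1 (0.59), talin Tln1 (0.38), calponin Cnn2 (0.66), zyxin Zyx (0.54) and beta-actin Actb (0.48) also rose, with ob/ob ranges that overlapped those of WT. The 5 members that were not called were Fhl2 (0.21, adjusted p = 0.0502), gamma-actin Actg1 (0.43, 0.0748), the myosin kinase Mylk (0.05, 0.586), vinculin Vcl (0.07, 0.720) and Srf itself (0.06, 0.881). The coactivator gene Mkl1, which encodes MRTF-A, was at 77.1 to 83.8 CPM (median 81.6) in WT and 90.6 to 128 CPM (median 100.1) in ob/ob (log2FC 0.37 ± 0.063, adjusted p = 2.77e-05), with no overlap. Its paralog Mkl2 (MRTF-B) had a log2FC of 0.19 (adjusted p = 0.0517) and Myocd, the smooth muscle member of the family, 0.50 (0.282).

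Promoter sequences of RefSeq (GRCm38.p6, 250 bases before to 50 after each start) were available for 26 members of this group and were searched on both strands for the CArG box, a run of 6 A or T bases between CC and GG. A box was found in 8 of the 26 (30.8%), against 488 of all 27025 genes with a promoter sequence (1.81%). Among tested genes with such a sequence 168 of 11016 (1.53%) held a box. The shares were 24 of 1106 genes called higher (2.17%) and 11 of 606 called lower (1.82%). The group was made up of SRF targets, and SRF binds this box. Its share therefore follows from the choice of list and is no result of the comparison. The windows below are shown because their genes rose and carry the element that SRF is known to bind. Capitals mark the box, which starts 161, 56, 62 and 102 bases before the annotated start in Myl9, Cnn2, Filip1l and Fhl1.
Myl9, chr2:156775258-156775357, plus strand: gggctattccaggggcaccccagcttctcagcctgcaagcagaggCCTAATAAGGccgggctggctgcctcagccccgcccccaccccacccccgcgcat
Cnn2, chr10:79988499-79988598, plus strand: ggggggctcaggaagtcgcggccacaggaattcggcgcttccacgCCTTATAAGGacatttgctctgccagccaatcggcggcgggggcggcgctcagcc
Filip1l, chr16:57549135-57549234, plus strand: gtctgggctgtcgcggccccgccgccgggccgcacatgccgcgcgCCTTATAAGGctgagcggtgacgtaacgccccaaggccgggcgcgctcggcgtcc
Fhl1, chrX:56779536-56779635, plus strand: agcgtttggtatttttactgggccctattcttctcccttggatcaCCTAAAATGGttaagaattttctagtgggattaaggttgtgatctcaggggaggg
The Filip1l gene, which encodes a filamin-interacting protein, was at 34.5 to 60.6 CPM (median 41.1) in WT and 47.5 to 116 CPM (median 60.8) in ob/ob (log2FC 0.63 ± 0.17, adjusted p = 0.00854), Myl9 at 281 to 399.6 CPM (median 324) in WT and 347 to 579 CPM (median 507) in ob/ob (log2FC 0.56 ± 0.095, adjusted p = 2.72e-05) and Cnn2 at 158 to 208 CPM (median 181) in WT and 166 to 423 CPM (median 289) in ob/ob (log2FC 0.66 ± 0.16, adjusted p = 0.00275). The other holders were Fhl2, Actg1, Vcl and Srf, which did not pass the test. No box of this form lay in the windows of Acta2 and Tagln, which says only that these letters are not in 300 bases around their annotated starts.

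Targets of YAP and TEAD, coactivator and factors that respond to stretch and adhesion, rose in 8 of 22 members and fell in 1 (median log2FC 0.16). Ankrd1, a muscle ankyrin repeat protein, was at 3.58 to 9.52 CPM (median 7.92) in WT and 13.3 to 65.5 CPM (median 26.2) in ob/ob (log2FC 2.03 ± 0.26, adjusted p = 1.04e-07). The membrane repair protein Myof was at 106 to 141 CPM (median 122) in WT and 161 to 205 CPM (median 198) in ob/ob (log2FC 0.64 ± 0.080, adjusted p = 5.59e-08). Both had groups that did not overlap. Crim1 (0.50), Igfbp3 (2.06), the Hippo kinase Lats2 (0.32) and Fjx1 (1.03) rose, and Gadd45a, a stress gene, fell (medians of 25.9 CPM in WT and 15.3 CPM in ob/ob, log2FC -0.85 ± 0.21, adjusted p = 0.00384). The most widely used readouts of YAP did not pass, with log2FC of -0.04 for Ctgf (adjusted p = 0.895), 0.00 for Cyr61 (0.998) and 0.29 for Amotl2 (0.337). The call of Fjx1 was lost on leaving out WT female 4, WT male 3, or ob/ob male 3 (adjusted p = 0.0510 to 0.0729). Without ob/ob male 3, 5 members rose and 2 fell.

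In the basement membrane group 15 of 26 members rose and 2 fell, with a median log2FC of 0.41. In 11 of the 15 the groups did not overlap, against 405 of all 1476 genes called higher. Collagen IV, the network-forming collagen of basement membranes, was carried by its alpha1 and alpha2 chains. Per length, Col4a1 had median TPM values of 2275 in WT and 3396 in ob/ob and Col4a2 of 1769.7 in WT and 2844 in ob/ob, while Col4a3 and Col4a4 had 4.80 in WT and 6.38 in ob/ob and 2.25 in WT and 2.80 in ob/ob, and Col4a5 and Col4a6 stayed under 1 TPM. Col4a1 was at 5365 to 9919 CPM (median 8282) in WT and 11589.7 to 14848 CPM (median 12618) in ob/ob (log2FC 0.73 ± 0.12, adjusted p = 2.22e-05) and Col4a2 at 3673 to 5608 CPM (median 5011) in WT and 7206 to 8927 CPM (median 7894) in ob/ob (log2FC 0.76 ± 0.091, adjusted p = 2.30e-08). In each the lowest ob/ob library exceeded the highest WT library. Col4a3 also rose, from a far lower level (log2FC 0.56 ± 0.18, adjusted p = 0.0244). Nidogens link the collagen and laminin networks, and Nid1 was at 1495 to 1938 CPM (median 1686) in WT and 2394 to 3323 CPM (median 2870.3) in ob/ob (log2FC 0.75 ± 0.073, adjusted p = 1.89e-10) and Nid2 at 119 to 285 CPM (median 183) in WT and 337 to 584 CPM (median 421) in ob/ob (log2FC 1.18 ± 0.14, adjusted p = 1.27e-08), both without overlap. Col18a1, the source of endostatin, had the largest change of the group, at 21.0 to 40.8 CPM (median 32.2) in WT and 76.2 to 123 CPM (median 97.1) in ob/ob (log2FC 1.69 ± 0.18, adjusted p = 2.52e-09), and its groups were also apart.

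The laminin chains Lamb1 (0.51), Lamc1 (0.43), Lama5 (0.40), Lama2 (0.63), Lamb2 (0.29) and Lama1 (1.54, medians of 2.24 and 5.64 CPM) rose, while Lama4 did not pass (0.18, adjusted p = 0.183). Perlecan (Hspg2), the main heparan sulfate proteoglycan of basement membranes, did not pass either (0.26, adjusted p = 0.102), and agrin (Agrn) rose slightly (log2FC 0.32 ± 0.072, adjusted p = 0.00139). The call of Col4a3 was lost on leaving out WT male 1 or 2 or ob/ob female 1 (adjusted p = 0.0541 to 0.0650), and also without the 3 libraries rich in Neat1 (adjusted p = 0.101). The members that fell were nephronectin (Npnt), the ligand of integrin alpha8 beta1, at 51.8 to 115 CPM (median 74.9) in WT and 25.3 to 44.6 CPM (median 33.8) in ob/ob (log2FC -1.19 ± 0.19, adjusted p = 6.34e-06), and Fras1 (log2FC -0.37 ± 0.11, adjusted p = 0.0155). All ob/ob libraries lay below all WT libraries for Npnt. Frem2, which acts with Fras1 in an epithelial adhesion complex, rose (log2FC 0.84 ± 0.12, adjusted p = 1.40e-06), as did Tinagl1 (log2FC 0.52 ± 0.081, adjusted p = 4.73e-06).

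Fibrillar and other collagens rose in 9 of 15 members and fell in 1, with a median log2FC of 0.72. Col12a1, which decorates collagen fibrils under tension, was at 160.1 to 307 CPM (median 261) in WT and 628 to 1229 CPM (median 930.0) in ob/ob (log2FC 1.88 ± 0.18, adjusted p = 1.23e-10). Col5a1, which nucleates fibrils, was at 186 to 244 CPM (median 219) in WT and 344 to 465 CPM (median 395) in ob/ob (log2FC 0.87 ± 0.067, adjusted p = 4.15e-13). Both were apart in the groups, as were the low-level Col3a1 at 2.67 to 8.28 CPM (median 5.29) in WT and 9.90 to 28.7 CPM (median 14.7) in ob/ob (log2FC 1.66 ± 0.26, adjusted p = 8.58e-06), Col5a3 (1.99) and Col27a1 (0.72). Col14a1 (1.20), Col8a1 (0.75), Col5a2 (0.43) and Col6a3 (0.38) rose with overlapping ranges. The member that fell was Col1a2, at 117 to 159 CPM (median 147) in WT and 82.7 to 132 CPM (median 92.9) in ob/ob (log2FC -0.56 ± 0.13, adjusted p = 0.00215). Its partner Col1a1 was close to 0 (median TPM 0.0100 in WT and 0.0450 in ob/ob) and did not pass (adjusted p = 0.338).

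Other matrix glycoproteins moved both ways, with 9 of 31 higher and 4 lower (median log2FC 0.19). Fibronectin (Fn1), a cell-adhesive glycoprotein of provisional matrix, was at 3.65 to 6.84 CPM (median 5.21) in WT and 13.5 to 29.9 CPM (median 15.8) in ob/ob (log2FC 1.87 ± 0.23, adjusted p = 4.01e-08). Spondin 2 (Spon2) was at 0.849 to 13.0 CPM (median 4.25) in WT and 20.2 to 82.4 CPM (median 28.7) in ob/ob (log2FC 2.73 ± 0.48, adjusted p = 4.71e-05). The microfibril protein fibrillin 1 (Fbn1) was at 342 to 476 CPM (median 423) in WT and 555 to 772 CPM (median 638) in ob/ob (log2FC 0.64 ± 0.075, adjusted p = 1.33e-08). The groups were apart in these 3 genes. Fibulin 5 (Fbln5), needed for elastic fibres, was at 8.21 to 15.1 CPM (median 10.8) in WT and 17.2 to 32.5 CPM (median 23.1) in ob/ob (log2FC 1.13 ± 0.17, adjusted p = 4.68e-06). Ecm1 was at 192 to 217 CPM (median 205) in WT and 245 to 314 CPM (median 269) in ob/ob (log2FC 0.43 ± 0.062, adjusted p = 1.35e-06). The 4 genes that fell were Postn, given above, Mgp at 7.83 to 15.5 CPM (median 9.96) in WT and 2.25 to 5.91 CPM (median 3.55) in ob/ob (log2FC -1.50 ± 0.24, adjusted p = 8.71e-06), Sned1 at 88.5 to 135 CPM (median 110.4) in WT and 28.3 to 99.3 CPM (median 50.2) in ob/ob (log2FC -1.12 ± 0.17, adjusted p = 4.69e-06) and Ltbp4, which binds latent TGF-beta, at 80.9 to 125 CPM (median 103) in WT and 50.4 to 83.9 CPM (median 64.1) in ob/ob (log2FC -0.69 ± 0.10, adjusted p = 2.02e-06). Fbln5 and Ecm1 were apart in the groups too, and of the 4 that fell Postn and Mgp had no overlap.

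Proteoglycans rose in 10 of 19 members and fell in none (median log2FC 0.35). Besides Ogn, the small leucine-rich members decorin (Dcn, log2FC 1.45 ± 0.21, adjusted p = 1.09e-06), prolargin (Prelp, log2FC 1.53 ± 0.23, adjusted p = 2.85e-06), fibromodulin (Fmod, log2FC 1.54 ± 0.30, adjusted p = 2.17e-04) and biglycan (Bgn, 0.32) were higher. Dcn was at 4.56 to 21.9 CPM (median 9.54) in WT and 17.0 to 39.8 CPM (median 27.1) in ob/ob, and Prelp at 2.59 to 4.61 CPM (median 3.47) in WT and 7.91 to 15.9 CPM (median 9.94) in ob/ob. The groups were apart for Prelp and Bgn and overlapped for Dcn and Fmod. The cell surface proteoglycans Sdc1 (medians of 146 CPM in WT and 222 CPM in ob/ob, log2FC 0.63 ± 0.090, adjusted p = 1.22e-06), Gpc4 (0.47), Gpc6 (0.35) and Cspg4 (NG2, a pericyte proteoglycan, medians of 486 CPM in WT and 643 CPM in ob/ob, log2FC 0.43 ± 0.091, adjusted p = 6.40e-04) rose as well. The call of Gpc6 was lost without the 3 libraries rich in Neat1 (adjusted p = 0.125).

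Enzymes and inhibitors that process matrix rose in 20 of 35 members, with 1 lower and a median log2FC of 0.44. Loxl2, which cross-links collagen IV, was at 58.4 to 89.8 CPM (median 84.4) in WT and 132 to 194 CPM (median 168) in ob/ob (log2FC 1.09 ± 0.093, adjusted p = 6.79e-12). The lysyl hydroxylases Plod2 (log2FC 0.65 ± 0.10, adjusted p = 2.95e-06) and Plod3 (log2FC 0.52 ± 0.070, adjusted p = 4.22e-07) and the prolyl hydroxylase subunit P4ha2 (log2FC 0.93 ± 0.17, adjusted p = 9.24e-05), which modify procollagen chains, were higher. The procollagen protease Bmp1 was at 85.0 to 105 CPM (median 101) in WT and 120.5 to 152 CPM (median 138) in ob/ob (log2FC 0.49 ± 0.064, adjusted p = 1.74e-07). Degrading enzymes rose too, among them Mmp2 at 444 to 675 CPM (median 554) in WT and 792 to 986 CPM (median 836) in ob/ob (log2FC 0.63 ± 0.071, adjusted p = 6.90e-09), Adamts12 at 24.5 to 44.0 CPM (median 39.3) in WT and 62.3 to 108 CPM (median 85.9) in ob/ob (log2FC 1.25 ± 0.13, adjusted p = 1.08e-09), Ctsk (log2FC 0.62 ± 0.085, adjusted p = 6.14e-07) and urokinase Plau (log2FC 0.44 ± 0.083, adjusted p = 1.36e-04). Loxl2, Bmp1, Mmp2 and Adamts12 had no overlap between the groups. Inhibitors were also higher, with Serpine2, an inhibitor of thrombin and urokinase, at 2227 to 2819 CPM (median 2670.3) in WT and 3378 to 4644 CPM (median 4002) in ob/ob (log2FC 0.63 ± 0.070, adjusted p = 4.12e-09) and Timp3 at 718 to 1359.5 CPM (median 1074) in WT and 1325 to 2155 CPM (median 1649) in ob/ob (log2FC 0.67 ± 0.11, adjusted p = 2.20e-05). The gene that fell was Mmp16, a membrane-type protease (medians of 40.6 CPM in WT and 26.3 CPM in ob/ob, log2FC -0.59 ± 0.10, adjusted p = 1.45e-05). Lox did not pass (-0.05, adjusted p = 0.970), nor did the collagen chaperone Serpinh1 (0.20, 0.367).

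Receptors for these proteins rose in 13 of 24 members of the integrin and adhesion group and fell in 1 (median log2FC 0.19). Itga9, whose ligands include osteopontin and tenascin, was at 403 to 522 CPM (median 486) in WT and 661 to 1027 CPM (median 783) in ob/ob (log2FC 0.80 ± 0.070, adjusted p = 1.53e-11). The common beta subunit Itgb1 was at 1429 to 1793 CPM (median 1601) in WT and 2025 to 2416 CPM (median 2199.6) in ob/ob (log2FC 0.46 ± 0.063, adjusted p = 4.57e-07). Itgav was at 277 to 321 CPM (median 285) in WT and 324 to 467 CPM (median 411) in ob/ob (log2FC 0.45 ± 0.071, adjusted p = 6.23e-06). Groups were apart in all 3. The mesangial integrin Itga8, apart in the groups, rose by a small amount (log2FC 0.17 ± 0.051, adjusted p = 0.0200), Itga1 by 0.29 and the integrin-linked kinase Ilk by 0.35 on the log2 scale. Itga4, which pairs with beta1 to bind Vcam1 and fibronectin, fell and was at 974 to 1151 CPM (median 1064) in WT and 745 to 955 CPM (median 834) in ob/ob (log2FC -0.33 ± 0.071, adjusted p = 6.29e-04), with the ranges apart. The call of Itga8 was lost without ob/ob male 3 (log2FC 0.15, adjusted p = 0.0522). A further member was called lower without WT female 1, WT male 1, 2 or 3, ob/ob female 3 or 4, or the 3 libraries rich in Neat1.

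**Figure D2:**
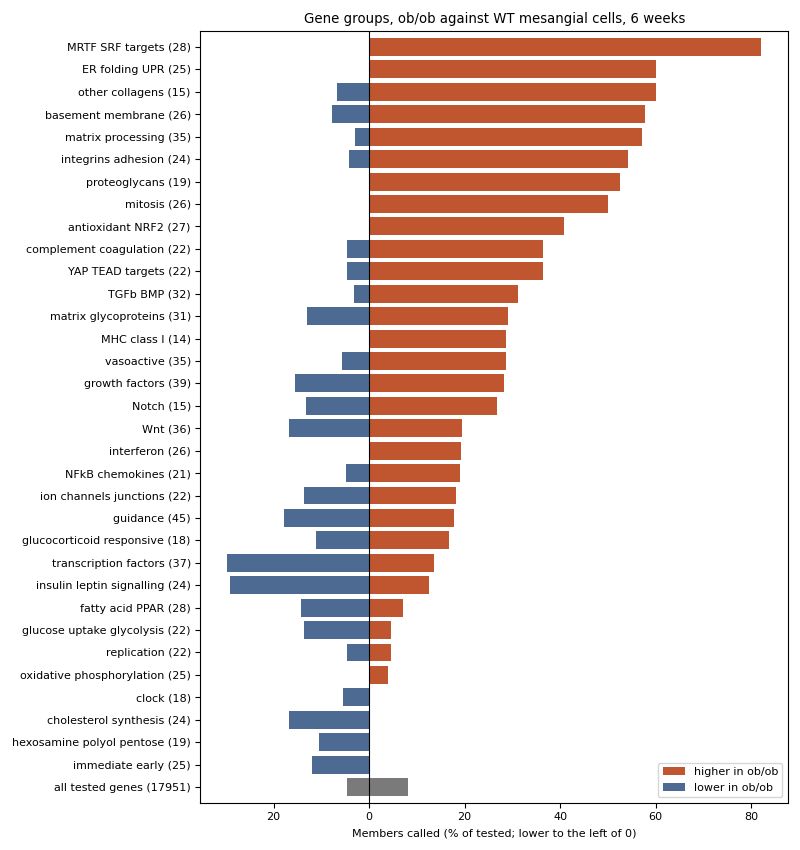
Share of tested members called higher (to the right of 0) and lower (to the left) in ob/ob mesangial cells at 6 weeks for 33 gene groups, in percent of members, with the number tested beside each name and the share over all 17951 tested genes as the bottom bar (8.22% higher, 4.66% lower). The bar for MRTF and SRF targets reaches 82.1%, and those for collagens, the basement membrane, matrix processing and protein folding in the endoplasmic reticulum lie between 57.1% and 60.0%.

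Of genes for vasoactive signals, 10 of 35 rose and 2 fell, and the median log2FC was 0.04. The clearance receptor for natriuretic peptides, Npr3, was at 187 to 256 CPM (median 227) in WT and 388 to 588 CPM (median 432) in ob/ob (log2FC 1.06 ± 0.089, adjusted p = 5.03e-12). The signalling receptor Npr1 was at 186 to 232 CPM (median 203) in WT and 261 to 348 CPM (median 298) in ob/ob (log2FC 0.52 ± 0.066, adjusted p = 1.15e-07). Neither overlapped. Gucy1a3, a subunit of the nitric oxide receptor guanylyl cyclase, fell and was at 939 to 1161 CPM (median 1073) in WT and 738 to 834 CPM (median 769) in ob/ob (log2FC -0.46 ± 0.068, adjusted p = 2.02e-06). The 2 regulators of G protein signalling went opposite ways, with Rgs5, a pericyte gene, at 259.5 to 332 CPM (median 302) in WT and 377 to 681 CPM (median 423) in ob/ob (log2FC 0.65 ± 0.14, adjusted p = 6.46e-04) and Rgs4 at 128 to 272 CPM (median 189.6) in WT and 72.5 to 140.4 CPM (median 108) in ob/ob (log2FC -0.88 ± 0.19, adjusted p = 5.23e-04). Rgs5 and Gucy1a3 were apart in the groups, and Rgs4 overlapped. Renin (Ren1) was at 2.22 to 6.89 CPM (median 4.81) in WT and 9.25 to 41.7 CPM (median 13.7) in ob/ob (log2FC 2.03 ± 0.43, adjusted p = 6.50e-04), and the other renin cell marker, Akr1b7, did not rise, as given above. The endothelin receptors Ednra (0.20) and Ednrb (1.65, median 5.14 CPM in ob/ob), the adrenergic receptor Adra1d (1.37), the adenosine receptor Adora2a (0.49) and cyclooxygenase Ptgs1 (0.33) also rose. The call of Ednra was lost without WT female 1 (log2FC 0.18, adjusted p = 0.0511), and also without the 3 libraries rich in Neat1 (adjusted p = 0.112). The call of Ednrb was lost without ob/ob female 1 (log2FC 1.28, adjusted p = 0.0656), and also without the 3 libraries rich in Neat1 (adjusted p = 0.0554). The angiotensin receptor Agtr1a did not pass (0.04, adjusted p = 0.738).

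Ion channel and junction genes were called in 7 of 22 members, 4 higher and 3 lower. Clca3a1, a chloride channel regulator, was at 0.881 to 2.79 CPM (median 2.58) in WT and 4.87 to 21.1 CPM (median 14.4) in ob/ob (log2FC 2.50 ± 0.30, adjusted p = 3.03e-08). Kcnmb1, the beta1 subunit of the calcium-activated potassium channel, was at 7.82 to 12.9 CPM (median 8.99) in WT and 15.9 to 30.3 CPM (median 20.6) in ob/ob (log2FC 1.15 ± 0.18, adjusted p = 5.73e-06). Their groups did not overlap. The stretch-activated channel Piezo1 was at 56.5 to 67.7 CPM (median 62.0) in WT and 67.6 to 87.5 CPM (median 79.9) in ob/ob (log2FC 0.35 ± 0.053, adjusted p = 3.26e-06), and the calcium sensor Stim1 rose by 0.34. Lower were Kcnj8, the pore of a pericyte ATP-sensitive potassium channel, at 9.29 to 22.1 CPM (median 15.3) in WT and 2.28 to 10.6 CPM (median 6.21) in ob/ob (log2FC -1.29 ± 0.26, adjusted p = 3.26e-04), Trpc4 at 71.6 to 91.4 CPM (median 84.8) in WT and 48.4 to 67.6 CPM (median 61.2) in ob/ob (log2FC -0.50 ± 0.13, adjusted p = 0.00542) and the chloride channel Ano1 (log2FC -0.22 ± 0.076, adjusted p = 0.0483). The call of Ano1 was lost on leaving out WT female 3 or 4, WT male 2, 3 or 4, ob/ob female 1, 2 or 3, or ob/ob male 1, 2 or 3 (adjusted p = 0.0552 to 0.120), and also without the 3 libraries rich in Neat1 (adjusted p = 0.149).

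Growth factor genes were called in 17 of 39 members, 11 higher and 6 lower (median log2FC 0.14). Ligands of the endothelial receptor Tie2 rose, with Angpt2 at 305 to 382 CPM (median 346) in WT and 479 to 749 CPM (median 619) in ob/ob (log2FC 0.83 ± 0.075, adjusted p = 3.57e-11) beside Angpt4 and Angpt1 (1.96, median 0.868 CPM in ob/ob). The epidermal growth factor family ligand betacellulin (Btc) was at 0.119 to 1.30 CPM (median 0.830) in WT and 2.05 to 5.23 CPM (median 2.79) in ob/ob (log2FC 2.23 ± 0.39, adjusted p = 4.46e-05). Angpt2 and Btc were both higher in every ob/ob library than in any WT library. PDGF ligands went both ways, since Pdgfc fell and was at 38.2 to 50.7 CPM (median 43.4) in WT and 14.1 to 25.6 CPM (median 16.9) in ob/ob (log2FC -1.26 ± 0.13, adjusted p = 1.29e-09), Pdgfd fell (log2FC -0.40 ± 0.092, adjusted p = 0.00191) and Pdgfa rose (log2FC 0.44 ± 0.10, adjusted p = 0.00212). The receptor Pdgfrb, through which endothelial PDGF maintains mesangial cells, was slightly lower (medians of 3574 CPM in WT and 2925 CPM in ob/ob, log2FC -0.27 ± 0.072, adjusted p = 0.00711), as was the coreceptor Nrp1 (medians of 2868 CPM in WT and 2272 CPM in ob/ob, log2FC -0.38 ± 0.076, adjusted p = 3.33e-04). Vegfa did not pass (-0.15, adjusted p = 0.758), while Vegfb (0.32) and Vegfc (0.63) rose.

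In the TGF-beta and BMP group 10 of 32 members rose and 1 fell (median log2FC 0.17). Among ligands, Tgfb1, the main profibrotic isoform, was at 186 to 215 CPM (median 204) in WT and 229.9 to 296 CPM (median 266) in ob/ob (log2FC 0.36 ± 0.069, adjusted p = 1.63e-04), Tgfb3 at 26.5 to 39.2 CPM (median 32.9) in WT and 38.5 to 57.4 CPM (median 44.4) in ob/ob (log2FC 0.48 ± 0.12, adjusted p = 0.00402) and Bmp2 at 60.0 to 90.8 CPM (median 72.6) in WT and 97.3 to 237 CPM (median 128) in ob/ob (log2FC 0.90 ± 0.17, adjusted p = 8.90e-05). Tgfb1 and Bmp2 were apart in the groups. Of receptors and coreceptors, endoglin (Eng) rose (medians of 1492 CPM in WT and 2113 CPM in ob/ob, log2FC 0.43 ± 0.055, adjusted p = 1.15e-07) and Bmpr2 rose by 0.21, while Tgfbr1 (-0.08, adjusted p = 0.572) and Tgfbr2 (0.08, 0.349) did not pass. Of inhibitors and antagonists, the feedback inhibitor Smad7 (medians of 86.0 CPM in WT and 135 CPM in ob/ob, log2FC 0.56 ± 0.10, adjusted p = 3.24e-05) and the follistatin-like genes Fstl1 (medians of 439.7 CPM in WT and 667 CPM in ob/ob, log2FC 0.65 ± 0.078, adjusted p = 2.85e-08) and Fstl3 (log2FC 1.61 ± 0.25, adjusted p = 4.31e-06) rose. The pseudoreceptor Bambi fell (log2FC -0.36 ± 0.12, adjusted p = 0.0325). The call of Bambi was lost on leaving out WT female 4, WT male 1, 2 or 3, ob/ob female 2 or 3, or ob/ob male 3 or 4 (adjusted p = 0.0503 to 0.0778), and also without the 3 libraries rich in Neat1 (adjusted p = 0.179).

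Guidance molecules were called in equal numbers in each direction, 8 of 45 higher and 8 lower, with a median log2FC of -0.05. Without the 3 libraries rich in Neat1 the numbers were 9 and 3, and 4 or 5 members fell on leaving out WT female 4, WT male 2, 3 or 4, ob/ob female 2, 3 or 4, or ob/ob male 3. Of the Eph receptors, Ephb1 and Epha7 (medians of 89.3 CPM in WT and 65.9 CPM in ob/ob, log2FC -0.47 ± 0.070, adjusted p = 2.02e-06) fell and Epha2 rose, at 5.14 to 12.7 CPM (median 9.20) in WT and 14.9 to 27.5 CPM (median 17.0) in ob/ob (log2FC 1.10 ± 0.18, adjusted p = 8.32e-06). Semaphorin 3E (Sema3e), a repulsive ligand, was at 6.21 to 11.4 CPM (median 9.12) in WT and 24.6 to 62.4 CPM (median 29.2) in ob/ob (log2FC 1.97 ± 0.22, adjusted p = 6.75e-09). The groups were apart in all 4. Plexins Plxna2 (0.55) and Plxnb2 (0.43), the semaphorin Sema3f (0.64) and the netrin Ntn4 (medians of 7.07 CPM in WT and 17.2 CPM in ob/ob, log2FC 1.26 ± 0.26, adjusted p = 4.40e-04) rose.

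Wnt genes rose in 7 of 36 members and fell in 6, with a median log2FC of 0.09. The secreted antagonists did not move together. Sfrp2 fell and was at 4822 to 5981 CPM (median 5206) in WT and 2339 to 5044 CPM (median 2826) in ob/ob (log2FC -0.80 ± 0.12, adjusted p = 1.72e-06), with 1 ob/ob library inside the WT range. Dkk2 rose and was at 520.5 to 703 CPM (median 625) in WT and 755 to 1259.6 CPM (median 966) in ob/ob (log2FC 0.68 ± 0.11, adjusted p = 1.99e-05). Frzb was at 9.02 to 17.0 CPM (median 12.4) in WT and 18.1 to 37.1 CPM (median 25.8) in ob/ob (log2FC 1.04 ± 0.13, adjusted p = 1.08e-07), both without overlap. Among receptors Fzd7 (medians of 41.6 CPM in WT and 58.9 CPM in ob/ob, log2FC 0.53 ± 0.10, adjusted p = 1.29e-04) and Lrp5 (0.26) rose, and Fzd3 (-0.38) and Lrp6 (-0.20) fell. The feedback target Axin2 was higher (medians of 15.6 CPM in WT and 21.6 CPM in ob/ob, log2FC 0.48 ± 0.12, adjusted p = 0.00250).

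In the Notch pathway 4 of 15 members rose and 2 fell. The receptors Notch4 at 45.9 to 55.2 CPM (median 48.1) in WT and 80.6 to 116 CPM (median 98.5) in ob/ob (log2FC 1.00 ± 0.090, adjusted p = 2.18e-11) and Notch3 at 426 to 521 CPM (median 487) in WT and 596 to 688 CPM (median 624) in ob/ob (log2FC 0.39 ± 0.063, adjusted p = 1.05e-05) had groups that did not overlap. The ligand Jag1 (medians of 56.9 CPM in WT and 97.0 CPM in ob/ob, log2FC 0.80 ± 0.13, adjusted p = 1.04e-05) and the glycosyltransferase Lfng (1.07) rose, the ligand Jag2 (-0.62) and the target Heyl (-0.69) fell, and the target Hes1 did not pass (0.02, adjusted p = 0.938). The call of Lfng was lost without ob/ob male 3 (log2FC 0.82, adjusted p = 0.0589). The call of Jag2 was lost without the 3 libraries rich in Neat1 (adjusted p = 0.0949). The call of Heyl was lost on leaving out WT male 4 or ob/ob male 2 or 3 (adjusted p = 0.0551 to 0.0625), and also without the 3 libraries rich in Neat1 (adjusted p = 0.0611).

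Mitotic genes rose in 13 of 26 members and fell in none, with a median log2FC of 0.98, the largest of the 33 groups. The proliferation antigen Mki67 was at 12.3 to 80.9 CPM (median 35.8) in WT and 64.1 to 108 CPM (median 92.8) in ob/ob (log2FC 1.29 ± 0.33, adjusted p = 0.00521). The mitotic kinesin-binding protein Cenpf was at 6.45 to 30.7 CPM (median 14.0) in WT and 30.4 to 53.5 CPM (median 38.1) in ob/ob (log2FC 1.30 ± 0.30, adjusted p = 0.00170). Both overlapped between the groups. Ect2, which drives cytokinesis, was at 0.598 to 3.32 CPM (median 1.95) in WT and 3.38 to 6.06 CPM (median 4.52) in ob/ob (log2FC 1.22 ± 0.27, adjusted p = 0.00116). Hmmr, a spindle protein, was at 1.94 to 4.99 CPM (median 2.62) in WT and 5.04 to 7.52 CPM (median 6.19) in ob/ob (log2FC 1.12 ± 0.26, adjusted p = 0.00148). In these 2 the ob/ob libraries lay above all WT libraries. The count moved with the libraries used, as 21 members rose without WT female 4, 8 rose without the 3 libraries rich in Neat1, and 1 rose in females alone against 21 in males alone. At the same age 1 of these 26 genes rose in podocytes and 25 rose in gECs, and none of the 26 differed in its change between mesangial cells and gECs. Of all 17951 genes of the mesangial test 1214 rose in podocytes and 1153 in gECs. Of 22 genes of DNA replication and the G1 phase 1 rose and 1 fell, both D cyclins. Ccnd1, which links growth signals to the cycle, was at 157 to 220.2 CPM (median 198) in WT and 239.7 to 427 CPM (median 352) in ob/ob (log2FC 0.83 ± 0.13, adjusted p = 1.15e-05), without overlap, and Ccnd2 fell (log2FC -0.29 ± 0.094, adjusted p = 0.0327). The call of Ccnd2 was lost on leaving out WT female 2 or 4, WT male 3, ob/ob female 3 or 4, or ob/ob male 3 (adjusted p = 0.0511 to 0.0913), and also without the 3 libraries rich in Neat1 (adjusted p = 0.0899). In that group 4 members rose without WT female 4, and 2 rose without WT female 1, ob/ob female 3 or the 3 libraries rich in Neat1. A further member fell without ob/ob female 1 or ob/ob male 4.

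Genes of protein folding in the endoplasmic reticulum (ER) and of its unfolded protein response rose in 15 of 25 members and fell in none (median log2FC 0.50). The members that rose were mostly chaperones and folding enzymes. Hspa5 (BiP), the main chaperone, was at 378 to 656 CPM (median 463) in WT and 489.8 to 1681 CPM (median 706) in ob/ob (log2FC 0.78 ± 0.18, adjusted p = 0.00195). Its cochaperone Hyou1 was at 116 to 180.1 CPM (median 137) in WT and 159 to 417 CPM (median 234) in ob/ob (log2FC 0.73 ± 0.14, adjusted p = 9.04e-05). The disulfide isomerase Pdia6 was at 59.7 to 106 CPM (median 67.5) in WT and 74.7 to 245 CPM (median 130.1) in ob/ob (log2FC 0.82 ± 0.18, adjusted p = 6.98e-04). Their upper ends reached well beyond WT, but the lowest ob/ob libraries stayed inside the WT range. Sel1l, which carries misfolded proteins to degradation, was at 151 to 195 CPM (median 174) in WT and 211 to 326 CPM (median 248) in ob/ob (log2FC 0.54 ± 0.070, adjusted p = 2.03e-07). Dnajc3 was at 114 to 142 CPM (median 123) in WT and 145 to 258 CPM (median 165) in ob/ob (log2FC 0.50 ± 0.087, adjusted p = 3.30e-05), both without overlap. The members that were not called included those downstream of the PERK branch, with log2FC of -0.22 for Atf4 (adjusted p = 0.0957), -0.16 for Ddit3 (0.514), 0.39 for Trib3 (0.780) and -0.02 for Asns (0.980), and Xbp1 at 0.34 (0.0678). Without WT male 4 or ob/ob female 1, 1 member fell.

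Antioxidant genes rose in 11 of 27 members and fell in none (median log2FC 0.22). The extracellular glutathione peroxidase Gpx3 was at 3.45 to 8.64 CPM (median 4.37) in WT and 11.2 to 35.2 CPM (median 28.7) in ob/ob (log2FC 2.37 ± 0.40, adjusted p = 1.80e-05). Heme oxygenase Hmox1 was at 22.8 to 46.4 CPM (median 36.4) in WT and 48.1 to 72.5 CPM (median 54.1) in ob/ob (log2FC 0.63 ± 0.17, adjusted p = 0.00679), in both cases without overlap. Gpx1 (0.62), Gpx4 (0.35), extracellular superoxide dismutase Sod3 (0.93), Gstm1 (0.43) and Gclm (0.29) also rose, whereas the NRF2 target Nqo1 did not pass (0.50, adjusted p = 0.325) and Slc7a11 was at 0.00 (1.0). Immediate early genes, which are also induced by tissue digestion, fell in 3 of 25 members and rose in none. Ier5 was at 278 to 434 CPM (median 356) in WT and 220.3 to 309 CPM (median 272) in ob/ob (log2FC -0.43 ± 0.10, adjusted p = 0.00265), and Jun and Fosb were close to the threshold (log2FC -0.33 ± 0.11, adjusted p = 0.0454 and log2FC -0.43 ± 0.15, adjusted p = 0.0496). The call of Jun was lost on leaving out WT male 1, 2 or 3, ob/ob female 2 or 3, or ob/ob male 1, 2, 3 or 4 (adjusted p = 0.0568 to 0.119), and also without the 3 libraries rich in Neat1 (adjusted p = 0.187). The call of Fosb was lost on leaving out WT female 2 or 4, WT male 1, 2 or 3, ob/ob female 2, 3 or 4, or ob/ob male 1, 2, 3 or 4 (adjusted p = 0.0530 to 0.152), and also without the 3 libraries rich in Neat1 (adjusted p = 0.131). Without WT male 4, 6 members fell.

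In central metabolism, 1 of 22 genes of glucose uptake and glycolysis rose (4.55%) and 3 fell (13.6%). Of 19 genes of the hexosamine, polyol and pentose pathways 2 fell (10.5%), and of 25 genes of oxidative phosphorylation 1 rose (4.0%). The background shares were 8.22% higher and 4.66% lower. Glucose transporter Slc2a1 did not pass (0.26, adjusted p = 0.0807), and Slc2a3 fell (medians of 15.6 CPM in WT and 11.3 CPM in ob/ob, log2FC -0.53 ± 0.14, adjusted p = 0.00647). Pdk4, a kinase that blocks glucose oxidation and is induced by fasting, glucocorticoids and fatty acids, was at 13.5 to 39.2 CPM (median 32.6) in WT and 7.76 to 25.5 CPM (median 12.2) in ob/ob (log2FC -1.19 ± 0.22, adjusted p = 9.11e-05), and Ldhb fell by 0.44 on the log2 scale. The glycolytic enzyme Eno1 rose (log2FC 0.30 ± 0.089, adjusted p = 0.0154). The call of Eno1 was lost without WT male 2 or ob/ob male 3 (adjusted p = 0.0560 and 0.0632). Without ob/ob female 2 or without ob/ob female 3, 5 glycolytic genes rose, and 6 rose without the 3 libraries rich in Neat1. A further one rose without WT female 1 or WT female 4, and without ob/ob female 2 a pair of hexosamine, polyol or pentose genes rose. The decrease of Gfpt2, given above, was the largest in these groups, and its isoform Gfpt1 did not pass (0.06, adjusted p = 0.653). Mgea5, the O-GlcNAc hydrolase, fell (log2FC -0.25 ± 0.069, adjusted p = 0.0111). The call of Mgea5 was lost without the 3 libraries rich in Neat1 (adjusted p = 0.0598).

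Fatty acid and PPAR target genes fell in 4 of 28 members and rose in 2. Those that fell included Pdk4, the coactivator Ppargc1a at 15.7 to 23.5 CPM (median 19.8) in WT and 5.87 to 11.3 CPM (median 8.57) in ob/ob (log2FC -1.19 ± 0.17, adjusted p = 1.69e-06) and the lipoprotein lipase inhibitor Angptl4 at 45.0 to 158 CPM (median 81.5) in WT and 28.5 to 82.1 CPM (median 39.7) in ob/ob (log2FC -1.01 ± 0.29, adjusted p = 0.0123). Of these 3 only Ppargc1a had no overlap between the groups. The call of Angptl4 was lost without WT male 4 (log2FC -0.82, adjusted p = 0.0556), and also without the 3 libraries rich in Neat1 (adjusted p = 0.0776). Without WT male 4, 2 members fell. The lipase Pnpla2 (0.34) and the dehydrogenase Acadm (0.21) rose. The call of Acadm was lost on leaving out WT male 1 or 4, ob/ob female 1 or 4, or ob/ob male 2 or 3 (adjusted p = 0.0542 to 0.103). Cholesterol synthesis genes fell in 4 of 24 members and rose in none, namely Cyp51 (log2FC -0.48 ± 0.13, adjusted p = 0.0100), Insig1 (-0.64), Sqle (-0.57) and Srebf2 (-0.27). The call of Insig1 was lost on leaving out WT female 3, ob/ob female 2, or ob/ob male 1, 2, 3 or 4 (adjusted p = 0.0506 to 0.0703), and also without the 3 libraries rich in Neat1 (adjusted p = 0.110). The call of Sqle was lost on leaving out WT female 1, 2, 3 or 4, WT male 2, ob/ob female 1 or 4, or ob/ob male 1, 2 or 4 (adjusted p = 0.0504 to 0.103). The call of Srebf2 was lost on leaving out WT female 1, 2 or 3, WT male 2, ob/ob female 2 or 3, or ob/ob male 3 or 4 (adjusted p = 0.0501 to 0.128), and also without the 3 libraries rich in Neat1 (adjusted p = 0.304). Without ob/ob female 2, 1 member of the group rose.

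Of 24 genes of insulin and leptin signalling 7 fell and 3 rose. Insulin receptor substrate Irs1 was at 173 to 287 CPM (median 231) in WT and 139 to 175 CPM (median 163) in ob/ob (log2FC -0.53 ± 0.10, adjusted p = 1.52e-04). The transcription factor Foxo1, which insulin restrains, was at 55.8 to 77.3 CPM (median 68.8) in WT and 37.5 to 55.3 CPM (median 48.3) in ob/ob (log2FC -0.52 ± 0.084, adjusted p = 1.15e-05). Only Foxo1 had no overlap. The cytokine signalling inhibitors Socs1 (-0.81), Socs2 (-0.74) and Cish (-0.71), Jak2 (-0.21) and Pik3r1 (-0.24) also fell, and Adipor1, a receptor for adiponectin, rose (medians of 95.5 CPM in WT and 129 CPM in ob/ob, log2FC 0.42 ± 0.070, adjusted p = 1.59e-05), as did the receptor Igf1r (0.33) and the adapter Grb10 (0.22). The call of Grb10 was lost on leaving out WT male 3 or 4, ob/ob female 1, or ob/ob male 1, 2 or 3 (adjusted p = 0.0508 to 0.0981). The call of Cish was lost on leaving out WT female 2, WT male 3, ob/ob female 4, or ob/ob male 3 (adjusted p = 0.0534 to 0.0650), and also without the 3 libraries rich in Neat1 (adjusted p = 0.0660). The leptin receptor Lepr did not pass (-0.14, adjusted p = 0.911), nor did the insulin receptor Insr (0.16, 0.198). Glucocorticoid-responsive genes rose in 3 of 18 members and fell in 2. The genes that fell were Pdk4 and the receptor Nr3c1, at 338 to 399 CPM (median 351) in WT and 235 to 337 CPM (median 310.3) in ob/ob (log2FC -0.27 ± 0.063, adjusted p = 0.00153), while Fkbp5 (0.60), Hif3a (3.82) and Zbtb16 (1.97) were higher. Without ob/ob male 3 none of the group rose. The call of Fkbp5 was lost without ob/ob male 3 (log2FC 0.45, adjusted p = 0.0684). The call of Hif3a was lost without ob/ob male 3 (log2FC 2.45, adjusted p = 0.0630). The call of Zbtb16 was lost on leaving out WT female 1, 2 or 3, WT male 1, 3 or 4, ob/ob female 4, or ob/ob male 2 or 3 (adjusted p = 0.0523 to 0.254). Clock genes were called in 1 of 18 members, Clock itself (log2FC -0.22 ± 0.076, adjusted p = 0.0440). The call of Clock was lost on leaving out WT female 1, 2, 3 or 4, WT male 4, ob/ob female 4, or ob/ob male 1, 2 or 4 (adjusted p = 0.0554 to 0.101), and also without the 3 libraries rich in Neat1 (adjusted p = 0.0520).

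Immune and complement genes rose more than they fell. Of 22 genes of complement and coagulation 8 rose and 1 fell (median log2FC 0.41). The thrombin receptor F2r was at 689 to 803 CPM (median 759) in WT and 1546 to 2359 CPM (median 1714) in ob/ob (log2FC 1.28 ± 0.094, adjusted p = 1.08e-13). Early components of the classical pathway rose, with C1ra at 69.7 to 82.7 CPM (median 77.2) in WT and 98.8 to 143 CPM (median 109.6) in ob/ob (log2FC 0.59 ± 0.087, adjusted p = 2.05e-06), C1s1 (medians of 334 CPM in WT and 413 CPM in ob/ob, log2FC 0.33 ± 0.069, adjusted p = 4.25e-04) and their inhibitor Serping1 at 166 to 201 CPM (median 189.7) in WT and 255 to 309.6 CPM (median 282) in ob/ob (log2FC 0.58 ± 0.078, adjusted p = 3.75e-07). F2r, C1ra and Serping1 did not overlap. C3, on which the complement pathways converge, did not pass (0.32, adjusted p = 0.875). Interferon-induced genes rose in 5 of 26 members, namely Oasl2 (medians of 25.6 CPM in WT and 36.9 CPM in ob/ob, log2FC 0.59 ± 0.14, adjusted p = 0.00266), Ifit2 (0.34), Bst2 (0.46), Ifi27 (0.34) and Gbp2 (0.58). Genes of MHC class I presentation rose in 4 of 14, namely H2-Q7 (medians of 33.9 CPM in WT and 57.9 CPM in ob/ob, log2FC 0.84 ± 0.26, adjusted p = 0.0203), H2-T22 (0.42), the peptide loader Tapbp (0.31) and the transporter Tap2 (0.25). Class I genes are a family of near-identical copies, so their reads may be split among them. The call of H2-Q7 was lost without WT male 3 (log2FC 0.76, adjusted p = 0.0513). The call of Tap2 was lost on leaving out WT female 1 or 4, WT male 1, 2, 3 or 4, ob/ob female 3 or 4, or ob/ob male 1, 2, 3 or 4 (adjusted p = 0.0518 to 0.0923), and also without the 3 libraries rich in Neat1 (adjusted p = 0.0591). Without WT male 3, 2 genes of the group rose. Of 21 NF-kB and chemokine genes 4 rose and 1 fell, and 2 fell without WT male 4 or ob/ob female 1. The lipopolysaccharide receptor Tlr4 was at 119 to 164 CPM (median 129) in WT and 163 to 311 CPM (median 241) in ob/ob (log2FC 0.84 ± 0.10, adjusted p = 1.27e-08). The chemokine Cx3cl1 was at 113 to 150.3 CPM (median 136) in WT and 166 to 277 CPM (median 197) in ob/ob (log2FC 0.61 ± 0.10, adjusted p = 1.19e-05), the latter without overlap. Il1r1 rose by 0.58 and Nfkb2 by 0.27, and Ccl2 did not pass (0.50, adjusted p = 0.597). The adhesion molecule Vcam1 fell (medians of 236 CPM in WT and 153 CPM in ob/ob, log2FC -0.68 ± 0.18, adjusted p = 0.00656). The call of Nfkb2 was lost on leaving out WT female 4, WT male 3 or 4, ob/ob female 1, or ob/ob male 2 (adjusted p = 0.0534 to 0.0896). The call of Vcam1 was lost without the 3 libraries rich in Neat1 (adjusted p = 0.0817).

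Of 37 transcription factors 11 fell and 5 rose, with a median log2FC of -0.04. Gata6, which holds smooth muscle cells in their mature state, was at 0.0405 to 0.535 CPM (median 0.262) in WT and 0 to 0.154 CPM (median 0.0358) in ob/ob (log2FC -2.30 ± 0.69, adjusted p = 0.0180). These levels lie near 0, so the change of Gata6 rests on few reads. Wt1, a regulator of kidney development that is also a podocyte marker, was at 106 to 157 CPM (median 137) in WT and 71.6 to 91.4 CPM (median 82.2) in ob/ob (log2FC -0.70 ± 0.11, adjusted p = 5.87e-06), and its antisense RNA Wt1os fell too. The libraries were stranded, but RSEM was run with its default settings, which do not use strand, so reads of the pair cannot be told apart. Among the members that fell were the vitamin D receptor Vdr at 26.9 to 48.6 CPM (median 37.3) in WT and 8.38 to 27.0 CPM (median 14.1) in ob/ob (log2FC -1.38 ± 0.23, adjusted p = 2.22e-05), the mineralocorticoid receptor Nr3c2 at 18.4 to 24.7 CPM (median 20.6) in WT and 7.81 to 16.4 CPM (median 14.2) in ob/ob (log2FC -0.65 ± 0.12, adjusted p = 7.68e-05) and the orphan nuclear receptor Nr2f1 (medians of 169 CPM in WT and 129.9 CPM in ob/ob, log2FC -0.40 ± 0.062, adjusted p = 4.73e-06). Wt1, Nr3c2 and Nr2f1 did not overlap between the groups. Tbx2 rose and was at 103 to 119 CPM (median 113) in WT and 124 to 201 CPM (median 167) in ob/ob (log2FC 0.55 ± 0.075, adjusted p = 3.90e-07), without overlap. Tead1 (0.35) and Wwtr1 (0.26), which encode a partner and a paralog of YAP, also rose, whereas Yap1 did not pass (0.06, adjusted p = 0.622).

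**Figure D3:**
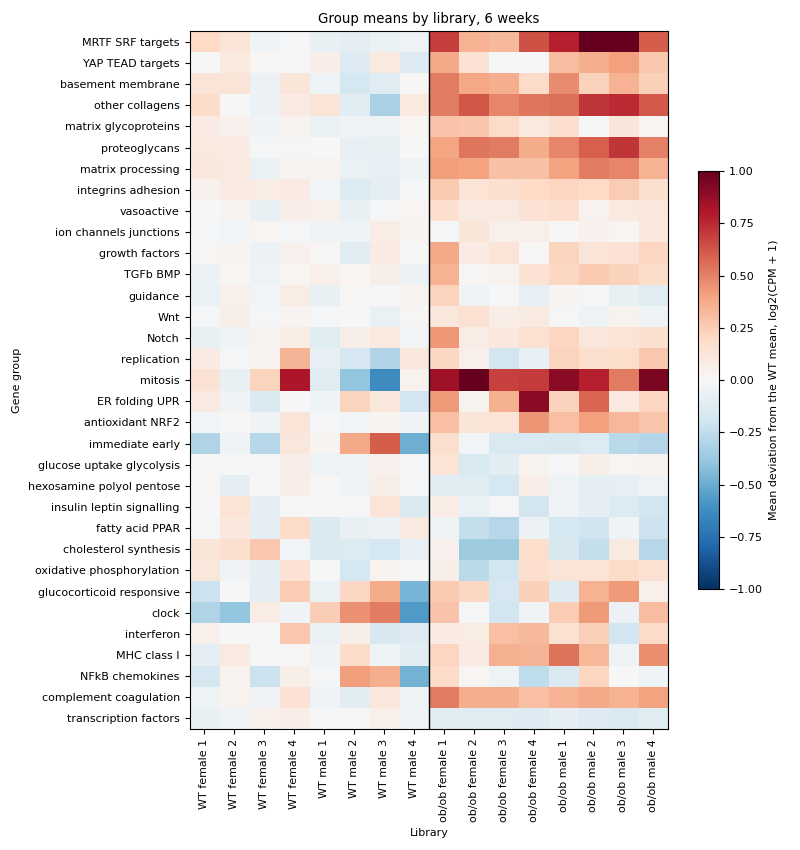
Mean deviation from the WT mean of log2(CPM + 1) over the tested members of each of 33 gene groups (rows) in each of the 16 libraries (columns), with red for higher and blue for lower values. In the rows for MRTF and SRF targets, basement membrane, collagens, proteoglycans, matrix processing, integrins and complement all 8 ob/ob libraries lie above all 8 WT libraries, and in the row for transcription factors all 8 lie below.

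The group means per library differed in how evenly they moved. The mean of log2(CPM + 1) over MRTF and SRF targets, set against the WT mean, lay between -0.09 and 0.20 in WT and between 0.32 (ob/ob female 3) and 1.04 (ob/ob male 3) in ob/ob. The collagens lay between -0.33 and 0.19 in WT and between 0.49 and 0.75 in ob/ob, and proteoglycans between -0.08 and 0.10 against 0.37 and 0.72. For ER folding the ob/ob libraries ran from 0.03 (ob/ob female 2) to 0.90 (ob/ob female 4), with 5 of the 8 above all WT libraries. For mitotic genes the WT libraries alone spanned -0.63 to 0.81, and 4 ob/ob libraries exceeded them. Immediate early genes spanned -0.49 to 0.60 in WT and -0.29 to 0.16 in ob/ob, so no ob/ob library left the WT range on either side.

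The sexes were compared in a model of the 16 libraries alone, with 4 libraries of each sex and genotype. In females 727 of 16438 genes (4.42%) and in males 2833 (17.2%) were called, and 516 genes were called in both. Of the 2283 genes of the joint comparison that this model also tested, 2271 had the same sign in females and males. Their median absolute log2FC was 0.304 in females and 0.45 in males. Only 1 gene passed the test of the difference between the sexes (0.00608% of those tested), whereas 2701 had an unadjusted p under 0.05 and DESeq2 called 268. That gene was Slc4a7, a bicarbonate transporter, with a log2FC of 0.74 in females and 0.04 in males (difference -0.70 ± 0.10, adjusted p = 0.0317), and the next in rank, Tcp11l2, Bcl2l11, Wwc1 and Aph1a, did not pass (adjusted p = 0.104 each). With single libraries left out, Slc4a7 passed this test without WT male 4, ob/ob female 1 or ob/ob male 4 and did not without any of the other 13 (adjusted p = 0.0626 to 0.137). The number of genes that passed was 144 without ob/ob female 1, 14 without WT male 4 and 3 without ob/ob male 4, and 0 without any of the other 13. The call of Slc4a7 was lost without ob/ob female 3 or 4 (adjusted p = 0.0594 and 0.0592), and also without the 3 libraries rich in Neat1 (adjusted p = 0.122). The MRTF and SRF targets had medians of 0.29 in females and 0.85 in males, collagens 0.39 and 0.60, and ER folding genes 0.58 and 0.46. With each sex fitted alone, 6 of the 28 MRTF and SRF targets rose in females and 26 in males. The mean log2 level of these targets, relative to WT, was lowest among ob/ob libraries in ob/ob female 2 (0.35) and ob/ob female 3 (0.323), both rich in Neat1, and was 0.695 and 0.634 in the other two ob/ob females. The part of these libraries in the values by sex was not tested. For Acta2 the log2FC was 2.47 in females and 3.30 in males, for Flna 0.52 and 1.13, and for Hyou1 0.86 and 0.59. None of these differences between the sexes passed the test (adjusted p = 0.352, 0.169 and 0.695).

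The same groups at 12 and 18 weeks, which share no library with those at 6 weeks, gave 4042 (22.5%) and 3473 (19.3%) called genes. Of the 6-week calls 1734 were called in the same direction at 12 weeks, which is 75.0% of the 6-week and 42.9% of the 12-week calls, and 4 in the opposite direction. At 18 weeks the numbers were 1649 (71.3% and 47.5%) and 4. In all, 1470 genes, 946 higher and 524 lower, were called the same way at all 3 ages. The size of the change was tested directly. The ob/ob effect differed between 12 and 6 weeks in 125 genes (0.696%), of which 34.4% had the higher value at 12 weeks with TMM and 46.8% with the RLE scaling of DESeq2. It differed between 18 and 6 weeks in 83 genes (0.462%). Of the 6-week calls 66 differed at 12 weeks, 52 of them with a larger change than at 6 weeks and 11 with the opposite sign. At 18 weeks 55 differed, 42 with a larger change and 11 with the opposite sign. The numbers depend on the fit, as 234 and 159 genes differed with DESeq2. Without the 3 libraries rich in Neat1 208 genes differed at 12 weeks, of which 26.4% had the higher value at 12 weeks.

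Genes that fell further with age included Postn, whose log2FC was -1.76 at 6, -3.51 at 12 and -3.52 at 18 weeks (12 minus 6 weeks difference -1.75 ± 0.24, adjusted p = 5.12e-05). Ltbp4 went from -0.69 to -1.99 and -1.81 (difference -1.30 ± 0.14, adjusted p = 2.34e-07), and Sfrp2 from -0.80 to -1.70 and -1.51 (difference -0.90 ± 0.17, adjusted p = 0.00377). Ltbp4 binds latent TGF-beta and Sfrp2 binds Wnt ligands, and both were already lower at 6 weeks. The ferrireductase Steap4 (-0.60 at 6 weeks, difference -0.73 ± 0.13, adjusted p = 0.00199), the protease inhibitor Serpinb1a (-0.36, difference -0.85 ± 0.13, adjusted p = 1.46e-04) and Rassf4 (-0.44, difference -0.78 ± 0.14, adjusted p = 0.00270) also had larger decreases at 12 than at 6 weeks. The call of Serpinb1a was lost without the 3 libraries rich in Neat1 (adjusted p = 0.0538). Of the genes that rose further, Col12a1 went from 1.88 to 2.98 and 3.18 (difference 1.10 ± 0.25, adjusted p = 0.0190), Fbln5 from 1.13 to 2.33 and 2.21 (difference 1.21 ± 0.24, adjusted p = 0.00985), and Tmtc1, an ER mannosyltransferase, from 2.20 to 3.68 and 3.50 (difference 1.48 ± 0.28, adjusted p = 0.00568). The retinoic acid synthesizing enzyme Aldh1a2 was 1.35 at 6 and 3.53 at 18 weeks (18 minus 6 weeks difference 2.18 ± 0.33, adjusted p = 3.27e-04), the glypican Gpc6 0.35 and 1.13 (difference 0.77 ± 0.13, adjusted p = 0.00100), and the T cell costimulator Icosl 0.46 at 6 and -0.33 at 12 and 0.30 at 18 weeks (difference -0.79 ± 0.14, adjusted p = 0.00253). Mustn1 and Adcy4 were not called at 6 weeks and differed at 12 weeks (difference -1.22 ± 0.19, adjusted p = 3.70e-04 and difference -0.71 ± 0.12, adjusted p = 0.00199).

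Of the 2313 genes 393 were called at 6 weeks and at neither later age, and the test of the difference passed in 13 of them. The genes described here were chosen after their values were seen. Notch3 had a log2FC of 0.39 at 6, 0.01 at 12 and -0.07 at 18 weeks (difference -0.38 ± 0.089, adjusted p = 0.0216). Syndecan 1 (Sdc1) went from 0.63 to 0.13 and 0.19 (difference -0.50 ± 0.13, adjusted p = 0.0455), and agrin from 0.32 to 0.01 and -0.12 (18 minus 6 weeks adjusted p = 0.0406). These genes rose at 6 weeks and did not pass at the later ages. Angptl4 turned from -1.01 to 0.67 and 0.77 (difference 1.68 ± 0.40, adjusted p = 0.0308). Angptl4 is a target of PPARs and had log2FC above 0 at the later ages. Without WT male 4 it was not called at 6 weeks, and without the 3 libraries rich in Neat1 the differences between ages of Sdc1, Agrn and Angptl4 did not pass (adjusted p = 0.0783, 0.120 and 0.0661). The difference of Sdc1 did not pass with RLE scaling (adjusted p = 0.0582), and those of Notch3 (0.0552), Sdc1 (0.0712) and Agrn (0.0713) did not pass without a filter on low counts. Of all 17951 tested genes 1880 were called higher at 12 and 1992 at 18 weeks, the background for the counts that follow. Chaperone genes of the ER had a median log2FC of 0.50 at 6 weeks, 0.07 at 12 and 0.26 at 18 weeks, with 3 and 5 of the 25 higher at the later ages, but none of them passed the test of the difference. Hspa5 was 0.78, -0.18 and 0.11 (12 minus 6 weeks difference -0.96, adjusted p = 0.0624). The MRTF and SRF targets kept medians of 0.57, 0.50 and 0.39 with 23, 23 and 18 members higher, and none of the 28 differed between ages. At 18 weeks the libraries were less deep, with medians of 18.3 and 19.0 M counts against 27.2 and 28.7 M at 6 weeks, and age and library depth cannot be told apart.

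**Figure D4:**
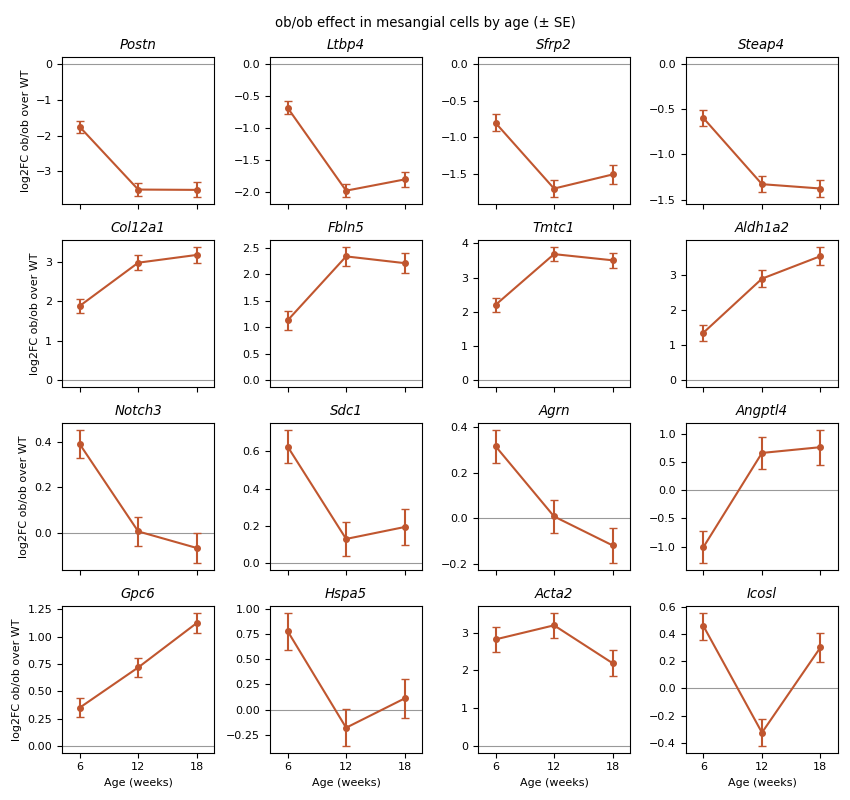
The log2FC of ob/ob over WT (vertical axis, error bars are ± SE) for 16 genes in mesangial cells at 6, 12 and 18 weeks (horizontal axis). Postn, Ltbp4 and Sfrp2 fall further after 6 weeks, Col12a1, Fbln5 and Tmtc1 rise further, Notch3 and Sdc1 approach 0, and Angptl4 changes sign.

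Podocytes and gECs of the same age served to ask which changes were larger in mesangial cells. In one model of the 48 libraries at 6 weeks 1968 of 18808 genes (10.5%) were called in podocytes and 1689 (8.98%) in gECs. The mesangial log2FC given here are those of the mesangial model, and for the 20 genes plotted by cell type they differed by at most 0.07 from those of the joint model. The ob/ob effect differed between mesangial cells and podocytes in 1289 genes (6.85%) and between mesangial cells and gECs in 679 (3.61%). The study sorted all cell types from isolated glomeruli, and their titles share genotype, sex and replicate number. The model took the 48 libraries as independent and ignored this possible pairing. With libraries of the same genotype, sex and number as a random block in limma voom, 1464 and 984 genes differed (block correlation 0.133). Of 2290 mesangial calls that this model tested, 614 differed from podocytes and 428 from gECs, and 210 had a larger change in mesangial cells than in both, 151 higher and 59 lower. Ogn, which rose in mesangial cells, had log2FC of -1.37 in podocytes and -1.54 in gECs (mesangial minus gEC difference 4.79 ± 0.47, adjusted p = 1.08e-08). Tmtc1 (-0.06 and 0.30, difference 1.90 ± 0.20, adjusted p = 2.57e-08), Limch1 (0.43 and 0.18, difference 2.32 ± 0.26, adjusted p = 5.85e-08) and the membrane protein Mmd (-0.09 and -0.01, difference 1.08 ± 0.12, adjusted p = 8.37e-08) did not pass in the other cells. Nid2 (-0.38 and 0.17), Notch4 (-0.27 and 0.20), Npr3 (-0.44 and -1.01) and Col18a1 (-0.25 and 0.77) also had larger increases in mesangial cells than in either, and Ephb1 (-0.60 and -0.92) a larger decrease.

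Some mesangial changes ran against those of a neighbouring cell. Between mesangial cells and podocytes 109 genes were called in opposite directions with a difference that passed the test, and between mesangial cells and gECs 58. Camk2a fell in mesangial cells (-1.70) and rose in podocytes (3.32, mesangial minus podocyte difference -5.01 ± 0.28, adjusted p = 2.75e-17). The retinal reductase Dhrs3 rose in mesangial cells (0.38) and fell in podocytes (-1.58, difference 1.96 ± 0.16, adjusted p = 1.71e-12). Pdgfc fell in mesangial cells (-1.26) and rose in podocytes (2.44, adjusted p of the difference 0.00323). The podocyte changes of Iqgap1 (1.52), Hdac7 (1.64) and Scd1 (2.52), which ranked highest in that test, were not seen in mesangial cells, where the log2FC were 0.03, 0.01 and -0.06 (adjusted p = 0.807, 0.937 and 0.855). Against gECs, F2r rose in mesangial cells and podocytes (1.28 and 1.03) and did not pass in gECs (0.22, difference 1.08 ± 0.11, adjusted p = 2.57e-08).

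Of the 2290 mesangial calls in the joint model, 131 were called in the same direction in all 3 cell types, 108 higher and 23 lower. A gene had to pass in each of the 3 cell types, so this count does not measure how common shared changes were. They included the Golgi mannosidase Man2a1, the galectin Lgals1, vimentin (Vim), the collagen chain Col4a2 and the actin-binding Tagln2, all higher, and Ephb1 and Clmn, lower. For Man2a1 the log2FC was 1.36 in mesangial cells, 0.45 in podocytes and 0.98 in gECs. Col4a2 was 0.76, 1.22 and 0.37 in that order. Of all 17951 genes of the mesangial test 1214 rose in podocytes and 1153 in gECs, and 1252 and 660 differed from mesangial cells. The group counts that follow are to be read against these. Of the MRTF and SRF targets 14 rose in podocytes and 8 in gECs, with medians of 0.40 and 0.22, and 8 and 7 of the 28 differed between mesangial cells and these neighbours. Acta2 was -0.84 in podocytes (adjusted p = 0.313) and 0.90 in gECs (0.100). Basement membrane genes had medians of 0.06 in podocytes and -0.08 in gECs, and 9 and 7 of the 26 differed from mesangial cells. Of the ER folding genes 4 rose in podocytes and 5 in gECs.

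**Figure D5:**
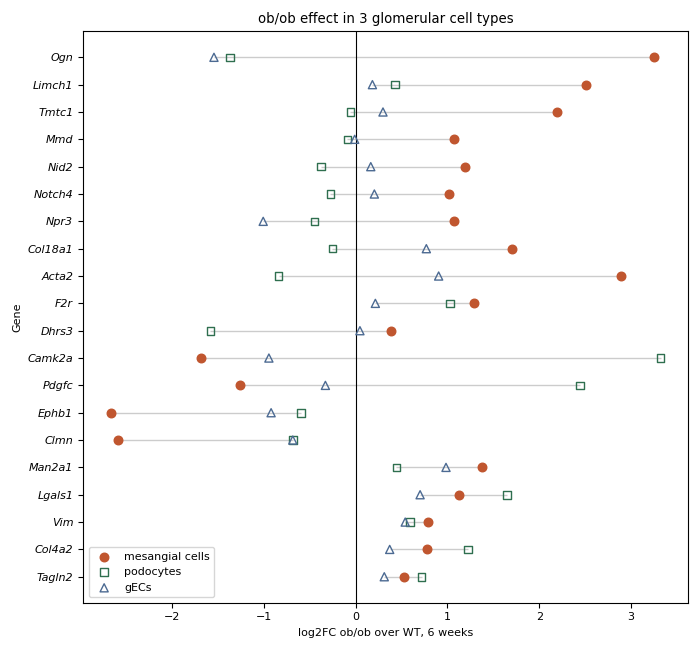
The log2FC of ob/ob over WT at 6 weeks (horizontal axis) of 20 genes (rows) in mesangial cells (filled circles), podocytes (squares) and gECs (triangles), all from the joint model of the 48 libraries. Ogn, Limch1 and Tmtc1 stand out to the right in mesangial cells alone, Camk2a and Pdgfc lie on opposite sides of 0 in mesangial cells and podocytes, and Col4a2 lies to the right of 0 in all 3.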

How the data were processed

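RNA was measured in bulk in sorted mouse glomerular cells, and 78 of the 144 libraries were read, namely all 46 mesangial libraries and the podocyte and gEC libraries at 6 weeks. The study made SMART-Seq Stranded libraries from 2 ng of total RNA of each sort, sequenced single reads, checked them with FastQC 0.11.5 and quantified them with RSEM 1.3.0 using Bowtie2 2.3.3.1 against mm10. RSEM was run with default parameters, under which strand is not used. The annotation release is not given in the sources used here. The deposited values are RSEM expected counts per gene, not normalized, and TPM, which the authors' RSEM run scaled for effective length.

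Groups were taken from sample titles. Rounding of the expected counts to whole numbers was followed by filterByExpr, TMM scaling and edgeR 4.0.16 tests (R 4.3.3, glmQLFit and glmQLFTest) with groups of genotype by age and sex as terms and Benjamini-Hochberg adjustment over all tested genes, and genes were called at an adjusted p under 0.05. Differences between ages, sexes and cell types were interaction contrasts, the sexes in the 16 libraries alone and the cell types in the 48 libraries at 6 weeks with sex within cell type. CPM are counts relative to TMM library sizes. TPM served to compare levels between genes. Marker sums were compared by exact permutation. The fits were tested on simulated data drawn from these libraries. Total counts of 24.5 to 33.4 M per 6-week mesangial library limit the precision of genes at a few CPM. Coordinates are those of GENCODE M21 on GRCm38, to which 46005 of 46517 gene entries matched, and promoter sequences are those of RefSeq.

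The genes named were the 15 with the largest and the 15 with the smallest log2FC among called genes averaging at least 5 CPM in the higher group, up to 8 called members with the smallest p in each gene group and any member that a count needed, the 5 with the smallest p in each interaction test, the 8 called genes with the smallest p for 12 minus 6 weeks, and Lep, Nt5e and Podxl. A few genes that these rules name are not reported here. The comparison, the gene groups and the markers were chosen with earlier results of these data known, so that they support nothing independently. Alternatives were RLE scaling, no filter, DESeq2 1.42.0, limma 3.58.1 on log2(TPM + 1), the 16 libraries alone, no sex term, a replicate block, single libraries left out, either sex alone and, added after the data were seen, leaving out the 3 libraries richest in Neat1. No other libraries were analysed here.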

Additional observations from a re-analysis of the deposited data

Results flagged for a closer look

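In 27 of the 316 sets of 8 libraries examined (genes given with their ranges, group means, marker sums and library measures), the highest or lowest library stood apart from the rest by more, relative to the whole range, than Dixon's critical value for groups of this size. Chance alone gives about 1 such set in 20, and the cause of each was not tested. The chaperone genes stood out in ob/ob female 4, with Hspa5 at 1681 CPM and Hyou1 at 417 CPM, where the next ob/ob libraries held 1006 and 262 CPM, and Hspa5 was also high in WT male 2 (656 CPM). The same ob/ob female 4 held the Sfrp2 level of 5044 CPM that lay inside the WT range. In ob/ob male 3 the secreted genes Bmp2 (237 CPM), C1qtnf3 (58.4 CPM), Col3a1 (28.7 CPM) and Spon2 (82.4 CPM) were highest, all in the direction of the group. Col1a2 and Sned1, which fell in ob/ob, had their highest ob/ob levels in ob/ob male 1 (132 CPM) and ob/ob female 3 (99.3 CPM), and Gucy1a3, also lower in ob/ob, in ob/ob male 4 (834 CPM). Cx3cl1 was highest in ob/ob female 3 (277 CPM) and Prelp in ob/ob male 2 (15.9 CPM). Among WT libraries Dcn was high in WT male 1 (21.9 CPM), and Clca3a1 was low in WT male 3 (0.881 CPM).

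Levels of markers of other cells stood apart in single libraries as well. The podocyte gene Podxl was at 99.2 CPM in ob/ob female 1. Tubule marker sums were small in every library and highest in ob/ob female 1, at 8.59 CPM for the proximal tubule and 5.41 CPM for the distal nephron among ob/ob libraries, and among WT libraries in WT female 4 (proximal tubule, 5.20 CPM) and WT male 2 (distal nephron, 12.7 CPM). Erythroid sums were highest in WT female 4 (4.10 CPM) and ob/ob male 1 (4.80 CPM). WT male 2 held 1611 CPM of Neat1. The group means of ob/ob female 1 lay above those of the other ob/ob libraries for guidance molecules (0.22), the Notch pathway (0.44) and complement (0.52 on the log2 scale), and WT female 4 had the highest WT mean of antioxidant genes (0.12).

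The ob/ob effect differed from that at 6 weeks in 125 genes at 12 weeks and in 83 at 18 weeks by edgeR's interaction test. Of the genes described, the 12 minus 6 weeks difference on the log2 scale was below 0 for Postn (-1.75), Ltbp4 (-1.30), Mustn1 (-1.22), Sfrp2 (-0.90), Serpinb1a (-0.85), Icosl (-0.79), Rassf4 (-0.78), Steap4 (-0.73), Adcy4 (-0.71), Sdc1 (-0.50) and Notch3 (-0.38). It was above 0 for Angptl4 (1.68), Tmtc1 (1.48), Fbln5 (1.21) and Col12a1 (1.10). The 18 minus 6 weeks difference was 2.18 for Aldh1a2, 0.77 for Gpc6 and -0.44 for Agrn. Between the sexes 1 gene differed, Slc4a7 (-0.70, males minus females). Mesangial cells differed from podocytes in 1289 genes, among them Camk2a (-5.01), Pdgfc (-3.70) and Dhrs3 (1.97), and from gECs in 679, among them Ogn (4.79), Limch1 (2.32), Tmtc1 (1.90), Mmd (1.08) and F2r (1.08).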

How the results depend on the processing

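The 2313 calls at 6 weeks became 1626 with limma on TPM, 1988 without a filter, 2379 with RLE scaling, 2515 in the 16 libraries alone, 2318 with no sex term, 2630 with DESeq2, 3092 in males alone, 540 in females alone and 2762 without the 3 libraries richest in Neat1, an alternative chosen after seeing the data. With single libraries left out they ran from 1960 (ob/ob male 2) to 2656 (ob/ob female 2). The 125 genes that differed between 12 and 6 weeks became 234 with DESeq2 and 208 without the libraries richest in Neat1, and the 83 that differed between 18 and 6 weeks became 159 with DESeq2. The difference between the sexes, 1 gene, became 17 genes without a filter, 268 with DESeq2, 0 without the libraries richest in Neat1, and 0 to 144 with single libraries left out. Counts for podocytes and gECs stayed within 1.5 times. The cause of these shifts was not tested, except that fewer libraries enter the fits of one sex and of those leaving libraries out.

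The residuals of same-numbered ob/ob and WT libraries correlated by -0.131 to 0.205. Libraries of different numbers were not compared, so these values cannot decide whether the numbers pair them. A replicate block gave 2048 calls at 6 weeks, 78 and 48 differences between ages and 0 between the sexes. Of the 278 called genes examined one by one it ended the calls of 18, among them Gata6 (adjusted p = 0.0782), Hif3a (0.0519), Jak2 (0.0504) and Ifi27 (0.0526). With the block the differences between ages of Sdc1 (adjusted p = 0.066) and Agrn (0.119) did not pass.

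Of these 278 genes DESeq2 ended no call of the 277 it gave a value for, RLE scaling 1, dropping the sex term 2 (Jun and Fosb), the 16 libraries alone 7, no filter 12, limma on TPM 29, the removal of some single library 31, that of the libraries richest in Neat1 22, males alone 33 and females alone 146. Among those not passing on TPM were Mkl1 (adjusted p = 0.287), Piezo1 (0.0685), Slc2a3 (0.263), Cyp51 (0.235) and Col6a3 (0.371). In females alone the log2FC turned to -0.0254 for Eno1 and -0.0184 for Grb10. Genes at a few CPM or less, such as Gata6, rest on few reads.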

Other observations

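In a principal component analysis of the 16 libraries the first component held 24.0% of the variance. On it 6 ob/ob libraries lay between 35.1 and 54.2, above all 8 WT libraries (-70.9 to 30.7), and the other 2, ob/ob female 2 (-65.6) and ob/ob female 3 (-39.7), lay at the opposite end. These 2 and WT male 2 (-70.9) were the libraries richest in Neat1. They were also the 3 with the most Malat1, another RNA retained in the nucleus, at 6488 to 9763 CPM, and with the most detected genes, 20701 to 21398. Kcnq1ot1, a nuclear antisense RNA, followed the same order at the top, with 150.4 to 209.9 CPM in these 3 against 53.5 to 127 CPM in the other 13. On the second component, with 10.3% of the variance, 7 of the 8 ob/ob libraries lay below all 8 WT libraries and ob/ob female 1 (9.80) lay among them.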
